A study of Mus musculus with 8 samples.

Results

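The Nanog gene neighbourhood is the stretch of mouse chromosome 6 that holds Nanog, Slc2a3, Dppa3, Gdf3 and Apobec1. Flag CUT&Tag peaks were assigned to these 5 genes, of 21951 protein-coding genes in the annotation, when the summit lay in the gene body or within 50 kb of the first start site. The windows of the 5 genes overlap and together span chr6:122552444-122851640 (mm10), a length of 299.2 kb, so a summit can count for more than 1 gene. The 8 libraries held 116 summits in this stretch, of 661009 peaks in all. A further 5 summits on coding exons of Nanog were set apart, since they may come from Nanog coding sequence of a vector.

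In CUT&Tag, an antibody guides the Tn5 transposase to a chromatin protein, and the DNA it cuts nearby is sequenced. Each library came from MEFs, mouse embryonic fibroblasts, on day 3 of reprogramming, and the antibody recognised Flag, the tag on the delivered factor. The factor was Nanog, Oct4, Sox2 or Nr5a2. It was either native or carried BiD, the SS18 domain through which BRG1 of the BAF remodelling complex is bound. Retroviral vectors delivered the factors, and co-delivered factors are not given in the titles. Each group held 1 library, so no value below is replicated and no test within a factor was possible. No library without a Flag-tagged factor was analysed here, so no background of the antibody can be set beside the peaks. The lists held between 54794 peaks (native Oct4) and 120594 peaks (Sox2BiD), and the number of reads behind them is not in the lists. Heights below are whole tags at the summit and are not scaled to depth, so a deeper library gives higher values. A fibroblast list of 10 genes had summits at 10 genes in 7 libraries and at 9 in native Oct4, where between 77.5% and 88.7% of all protein-coding genes had a summit in a library. Binding does not measure the expression of those genes.

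Nanog encodes a homeodomain transcription factor of the pluripotency network, and in fibroblasts it is silent. In embryonic stem cells it is read from a promoter bound by Oct4 and Sox2, and distal elements upstream and downstream contribute. Dppa3, also called Stella, encodes a protein that protects the methylation state of the early embryo, and Gdf3 encodes a ligand of the TGF-beta family. Slc2a3 encodes the glucose transporter GLUT3, and Apobec1 encodes a cytidine deaminase that edits RNA. These genes lie next to each other, and several of them are active together in pluripotent cells.

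Sequences are shown for places on which the results below turn. They are the Nanog promoter, which no peak covered, the nearest upstream region of Nanog, which peaks of 3 factors covered, a summit each of Oct4BiD and native Sox2 with the word of that factor, and regions of Slc2a3 and of both Oct4 libraries described below. The words searched on both strands within 50 bp of a summit were ATGCAAAT (octamer, bound by Oct4), CATTGTT (SOX), CAAGGTCA (NR5A), GCCATTA (NANOG) and TGACTCA (AP-1). Capitals mark such a word on the strand shown, which is the reverse complement where the match is on the minus strand. In the promoter they mark TTTGCAT and ACAATG, a joint octamer and SOX word with 1 free base between its parts, which was searched after the data were seen. The promoter is from RefSeq on GRCm38.p6, and the other sequences are from the same assembly, the one behind mm10.
Nanog, 250 bases upstream of the start, chr6:122707239-122707488, plus strand: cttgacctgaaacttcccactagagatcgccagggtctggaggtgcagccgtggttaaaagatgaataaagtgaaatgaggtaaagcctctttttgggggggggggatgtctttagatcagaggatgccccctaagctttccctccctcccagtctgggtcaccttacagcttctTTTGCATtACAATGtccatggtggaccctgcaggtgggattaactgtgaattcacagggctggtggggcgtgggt
Region 4.82 kb upstream of Nanog, peaks of 6 libraries, chr6:122702621-122702721, plus strand: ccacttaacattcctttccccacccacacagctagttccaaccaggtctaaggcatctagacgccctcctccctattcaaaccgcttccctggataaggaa
Upstream of Dppa3, Oct4BiD alone, octamer, chr6:122624645-122624745, plus strand: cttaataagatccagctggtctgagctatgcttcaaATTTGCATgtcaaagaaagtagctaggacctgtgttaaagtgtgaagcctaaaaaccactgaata
Intron of Slc2a3, native Sox2 summit, SOX word, chr6:122765205-122765305, plus strand: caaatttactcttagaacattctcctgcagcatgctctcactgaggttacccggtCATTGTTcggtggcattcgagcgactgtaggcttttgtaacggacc
Intron of Slc2a3, peaks of 7 libraries, AP-1 word, chr6:122758881-122758981, plus strand: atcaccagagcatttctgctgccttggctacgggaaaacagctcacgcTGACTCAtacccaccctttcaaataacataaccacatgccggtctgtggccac
Intron of Slc2a3, both Nanog libraries alone, NR5A word, chr6:122782527-122782627, plus strand: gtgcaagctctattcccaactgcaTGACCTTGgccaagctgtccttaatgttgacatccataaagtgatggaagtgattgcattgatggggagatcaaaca
Between Dppa3 and Nanog, 31.11 kb upstream of Nanog, both Oct4 libraries alone, chr6:122676329-122676429, plus strand: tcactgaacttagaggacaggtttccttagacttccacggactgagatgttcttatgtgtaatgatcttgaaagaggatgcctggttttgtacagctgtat

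All 5 genes had at least 1 summit in 7 libraries, and native Nanog had summits at 4, with none in the window of Dppa3. Such a summit is common in these lists. Of all protein-coding genes, 83.9% had one in native Nanog and 83.6% in NanogBiD. The share was 82.0% for native Oct4 and 86.5% for Oct4BiD, and it was 77.5% for native Sox2 and 88.7% for Sox2BiD. For native Nr5a2 it was 87.5% and for Nr5a2BiD 86.0%. With 5 genes whose windows overlap, the presence of a summit therefore did not set the neighbourhood apart, and the positions of the summits are described instead.

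**Figure D1:**
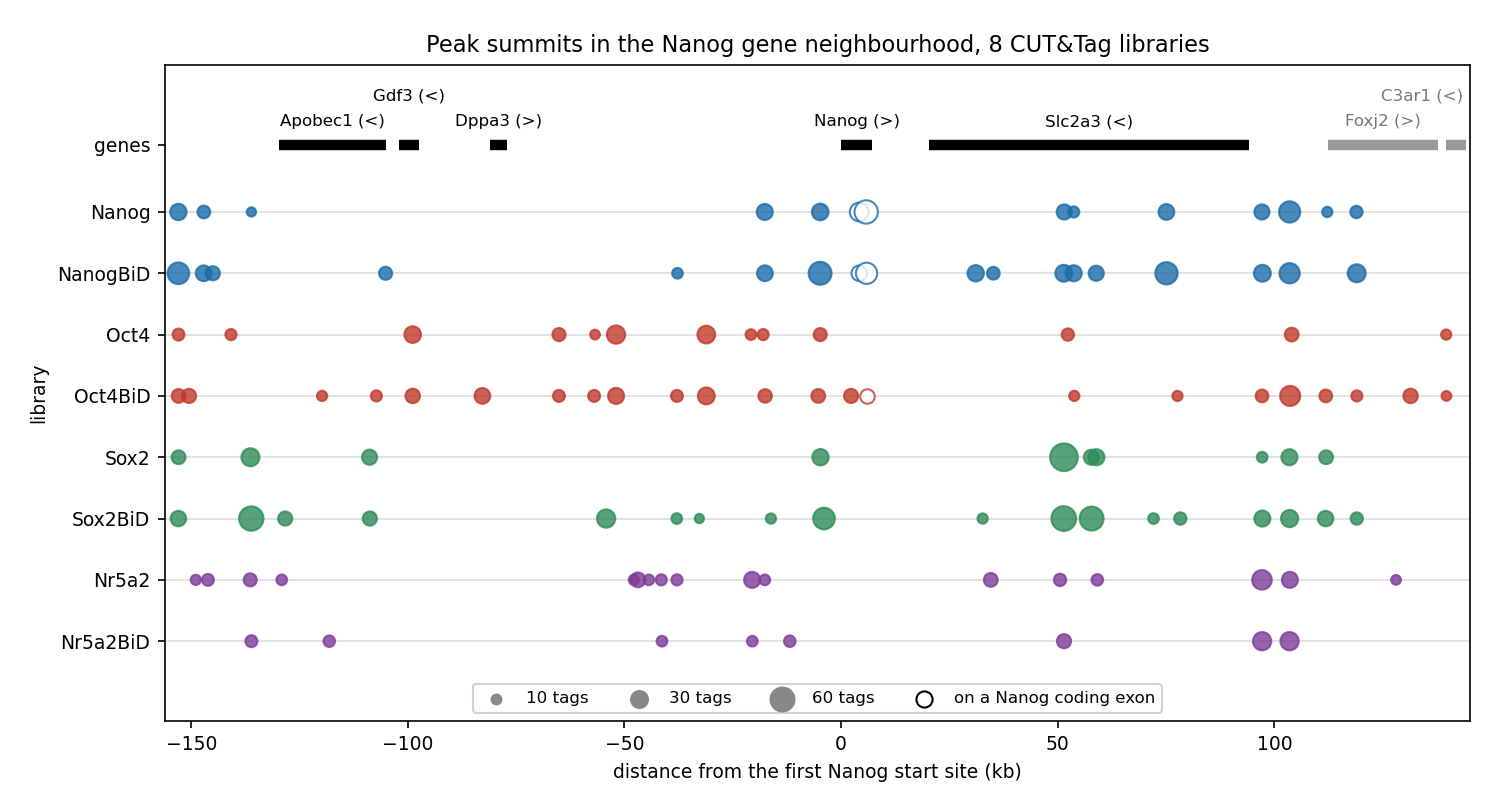
Summits of the 8 libraries along the neighbourhood, by distance from the first Nanog start site (kb, x axis) and library (y axis), with the area of a circle proportional to summit height in tags, open circles on Nanog coding exons, and gene bodies above (> plus strand, < minus strand). The 6 Nanog, Oct4 and Sox2 libraries have circles between -5.28 kb (Oct4BiD) and -3.95 kb (Sox2BiD). Circles also lie near +103.5 kb in all 8 libraries, and no filled circle lies over the Nanog start.

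Around Nanog itself, chr6:122707489-122714633 on the plus strand, no library had a peak over the promoter, taken as 1000 bp before to 200 bp after the first start. The nearest upstream region with peaks lay at chr6:122701802-122704570, in intergenic sequence, with a median summit 4.82 kb before the start. Within it the summit height was 29 tags in native Nanog, 55 in NanogBiD, 18 for native Oct4 and 20 for Oct4BiD, and it was 28 in native Sox2 and 49 in Sox2BiD. Neither Nr5a2 library had a peak there. The region lies at the place of the element usually called the 5 kb upstream element of Nanog. The scores of its peaks ran from 151.3 in native Oct4 to 720.8 in Sox2BiD, where 50 is the lowest score listed. The window taken for that element ran from 6 to 4 kb before the start. The Sox2BiD peak overlapped this window, but its summit fell outside it.

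The summits in this upstream region did not all coincide. Those of native Nanog, NanogBiD and native Oct4 fell in the sequence shown above, at 4818, 4854 and 4817 bp before the start, and that of native Sox2 fell just outside them, at 4756 bp. The summit of Oct4BiD was at 122702214, and that of Sox2BiD was 3952 bp before the start, so the summits spread over 1323 bp in all. That sequence held none of the 5 words, and the promoter sequence held the joint word 75 to 62 bases before the start, where no peak lay. The joint word was taken from this promoter. It was found in 2 of 32851 RefSeq promoter entries (0.00609%), which are the overlapping entries of Nanog itself, and within 50 bp of 0 of the 116 summits. A missing match says only that these letters are not in the window.

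The number of summits in the window of Nanog was 2 in native Nanog, 5 in NanogBiD, 4 in native Oct4, 5 in Oct4BiD, 1 in native Sox2, 5 in Sox2BiD, 8 in native Nr5a2 and 3 in Nr5a2BiD. Native Nr5a2 was thus highest and native Sox2 lowest, as they were for the median protein-coding gene, with 8 and 2 summits. In the window of Nanog, with scores of at least 100, Oct4BiD was highest with 5 and native Nr5a2 had 3. With the 50000 highest-scoring peaks they had 4 and 2. Exact Poisson 95% intervals were 3.45 to 15.8 for 8 summits and 0.0253 to 5.57 for 1 summit, so that even the ends of this order overlapped. These intervals, and all below, cover counting error only. Per 10000 peaks of the library the counts were 0.741 in native Nr5a2, 0.73 in native Oct4, 0.66 in NanogBiD, 0.532 in Oct4BiD, 0.415 in Sox2BiD, 0.394 in Nr5a2BiD, 0.272 in native Nanog and 0.172 in native Sox2. The order of the libraries therefore depended in part on how many peaks each held.

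The 8 summits of native Nr5a2 near Nanog lay apart from the region at 4.82 kb. The nearest was 17612 bp before the start. Between 48 and 42 kb before the start, the place of the element usually called the 45 kb upstream element, native Nr5a2 had 3 summits of 11, 23 and 12 tags, and no other library had a peak there. Their scores were 85.6, 125.0 and 50.02, above 31.5%, 50.1% and 0.0268% of the peaks of the library. A region 41.42 kb upstream held a peak of native Nr5a2 with 13 tags and of Nr5a2BiD with 12 tags, and of no other factor. These scored 63.8 and 51.5, above only 15.0% and 2.14% of the peaks of their libraries.

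Both Oct4 libraries shared a set of sites between Gdf3 and Nanog. They included summits 31.11 kb upstream of Nanog with 33 tags in native Oct4 and 30 in Oct4BiD, which lay 6 bp apart. At 51.94 kb upstream the heights were 35 and 27 tags, with summits 2 bp apart. At 98.88 kb upstream, in an intron of Gdf3, they were 29 and 22 tags, with summits 7 bp apart. Pairs with fewer tags lay at 65.11 kb (18 and 15 tags) and 56.9 kb (10 and 15 tags). Another of 11 and 10 tags lay beyond Foxj2 at C3ar1, which encodes a complement receptor. The scores of native Oct4 and Oct4BiD were 351.9 and 343.7 at 31.11 kb, and 229.2 and 257.3 at 51.94 kb. They were 204.2 and 223.9 at 98.88 kb, 122.4 and 154.2 at 65.11 kb, and 55.8 and 148.1 at 56.9 kb. At C3ar1 they were 59.9 and 60.7, so the forms did not always rank alike by tags and by score.

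These 6 regions had peaks of both Oct4 forms and of no other library, 12.2% of the 49 regions beside 5.03% of all regions. For Nanog, Sox2 and Nr5a2 the number of regions with both forms of 1 factor alone was 1 each, 2.04%, beside 3.78%, 6.62% and 10.1% of all regions. None of the 6 Oct4 regions held the octamer within 50 bp of a summit, as the sequence at 31.11 kb shows. Over all 116 summits the octamer was found at 1.

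Inside the Nanog gene, the only summit off the coding exons was in an intron at 2310 bp, with 21 tags, in Oct4BiD. The 5 summits set apart were on coding parts of 2 exons, chr6:122711538-122711803 and chr6:122713142-122713552. On the first, native Nanog had a peak with 37 tags at its summit and NanogBiD a peak with 25 tags. On the second, the heights were 57 tags in native Nanog, 47 in NanogBiD and 22 in Oct4BiD, and no other library had a peak. The peaks began between 99 and 263 bp before the exon and ran between 3 and 267 bp past the end of its coding part. These are ends of called peaks, and where single tags mapped is not in the lists. The remaining coding parts of Nanog, of 151 bp or less, had no peak in any library. Tags from vector and from the gene cannot be told apart in these lists.

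**Figure D2:**
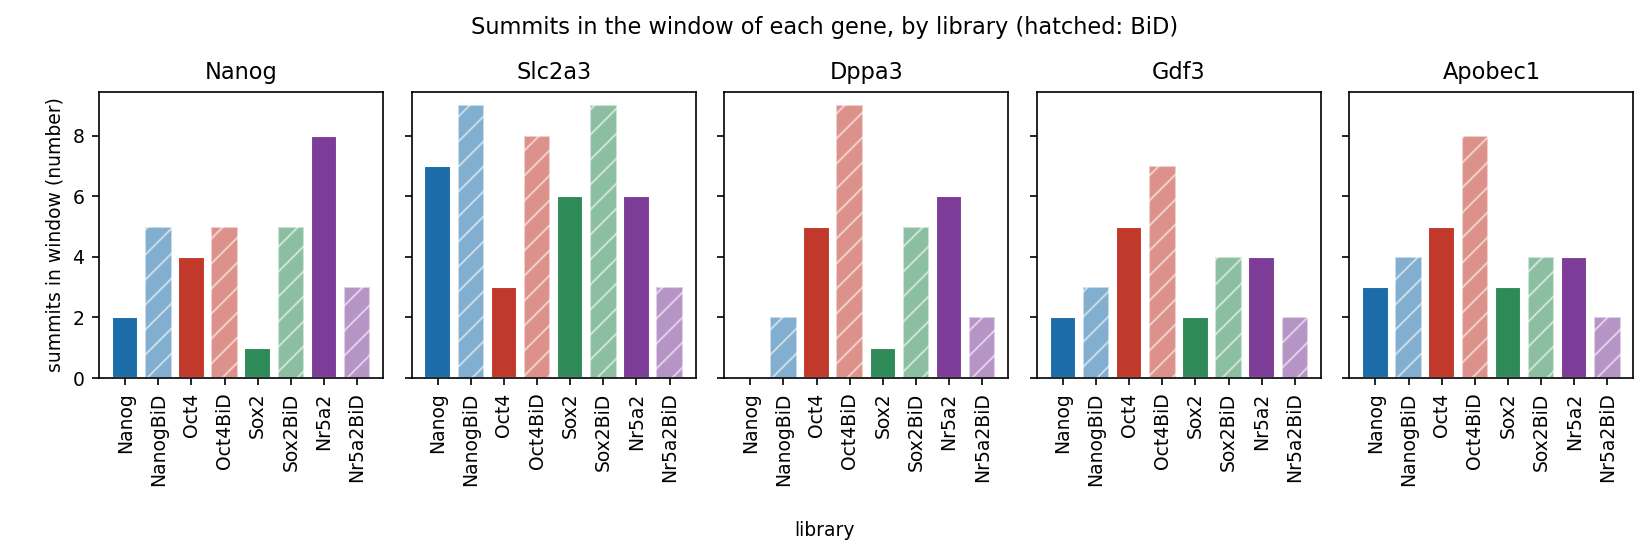
Number of summits (y axis) in the window of each of the 5 genes, by library (x axis), with BiD libraries hatched and Nanog coding exon summits left out. Oct4BiD was the highest bar at Dppa3 (9), Gdf3 (7) and Apobec1 (8), and native Nr5a2 was the highest at Nanog (8). The median over all protein-coding genes was 5 in Oct4BiD and 8 in native Nr5a2.

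Dppa3, chr6:122626410-122630272 on the plus strand, had 0 summits in its window in native Nanog, 2 in NanogBiD, 5 in native Oct4, 9 in Oct4BiD, 1 in native Sox2, 5 in Sox2BiD, 6 in native Nr5a2 and 2 in Nr5a2BiD. The count of 0 allows up to 3 summits, a one-sided limit. No library had a summit in the gene body. The summit nearest to the start was that of Oct4BiD, 1715 bp upstream with 26 tags, in a region with no peak of another library. It was the only one of the 22 summits of Oct4BiD with the octamer, and its sequence is given above. Native Oct4 came no nearer than 15973 bp, and native Nanog no nearer than 55016 bp.

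Gdf3, chr6:122605403-122610087 on the minus strand, had 2 summits in native Nanog, 3 in NanogBiD, 5 in native Oct4, 7 in Oct4BiD, 2 in native Sox2, 4 in Sox2BiD, 4 in native Nr5a2 and 2 in Nr5a2BiD. In its body lay only the shared Oct4 site, 1478 bp inside the first start in native Oct4 and 1471 bp inside in Oct4BiD. The highest summit in its window was the 62 tags of Sox2BiD, 136.1 kb upstream of Nanog. Native Sox2 had 34 tags in the same region, native Nr5a2 18, Nr5a2BiD 15 and native Nanog 9, and both Oct4 libraries and NanogBiD had no peak. Sox2 libraries were thus highest there.

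Apobec1, chr6:122577792-122602444 on the minus strand, had 3 summits in native Nanog, 4 in NanogBiD, 5 in native Oct4, 8 in Oct4BiD, 3 in native Sox2, 4 in Sox2BiD, 4 in native Nr5a2 and 2 in Nr5a2BiD. A single library had a summit at its first start, NanogBiD with 18 tags, 83 bp inside it. Within 2 kb of any annotated start of the gene, Oct4BiD, native Sox2 and Sox2BiD also had 1 summit each. In an intron at 108.8 kb upstream of Nanog, native Sox2 had 24 tags and Sox2BiD 21 tags, in summits 64 bp apart, and no other factor had a peak.

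Slc2a3, chr6:122727809-122801640 on the minus strand, had the most summits of the 5 genes in native Nanog (7), NanogBiD (9), native Sox2 (6) and Sox2BiD (9). It had 3 in native Oct4, 8 in Oct4BiD, 6 in native Nr5a2 and 3 in Nr5a2BiD. Its window is wider than the others, 123832 bp beside 100001 bp, because the gene is long. Its first start is that of a long transcript. Counted from the start of transcript Slc2a3-201, inside that body, the counts were 4, 7, 2, 4, 4, 6, 3 and 2 in native Nanog, NanogBiD, native Oct4, Oct4BiD, native Sox2, Sox2BiD, native Nr5a2 and Nr5a2BiD, an alternative chosen after the data were seen.

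An intron of Slc2a3 at 51.44 kb downstream of the Nanog start held the highest summit of the neighbourhood, 80 tags in native Sox2. The height there was 64 tags in Sox2BiD, 30 in NanogBiD, 24 in native Nanog and 21 in Nr5a2BiD. It was 16 in native Oct4 and 16 in native Nr5a2, and Oct4BiD had no peak. By score the order was 708.2 in native Sox2, 647.0 in Sox2BiD, 212.1 in native Nanog and 182.7 in native Nr5a2. Nr5a2BiD followed with 150.2, NanogBiD with 98.7 and native Oct4 with 97.3. The highest score of the neighbourhood was 767.8, in Sox2BiD 136.1 kb upstream of Nanog. Summits of both Sox2 forms, both Nanog forms and Nr5a2BiD lay in or within a few bases of the sequence shown, which holds an AP-1 word. That word lay within 50 bp of the summits of NanogBiD, native Sox2 and Nr5a2BiD, and not of native Nanog or Sox2BiD. The summits of native Oct4 and native Nr5a2 were at 122759820 and 122758017, so that the region spread over 1803 bp. It therefore held more than 1 summit position.

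A second intronic region of Slc2a3 lay 58.88 kb downstream, at the place usually called the +60 kb element. Native Sox2 had summits of 24 and 27 tags there, Sox2BiD 60, NanogBiD 24 and native Nr5a2 14, and native Nanog, both Oct4 libraries and Nr5a2BiD had none. The 24 tags of native Sox2 and the 60 tags of Sox2BiD lay at 57.77 and 57.82 kb, and the SOX word of the sequence above was within 50 bp of both. The NR5A word was within 50 bp of the native Nr5a2 summit at 59.14 kb. The NanogBiD summit and the native Sox2 summit of 27 tags had no word of their own factor within that distance.

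At 75.09 kb, further along the same gene, native Nanog had 26 tags and NanogBiD 52 tags in summits 15 bp apart, with no peak of another factor. Beyond the first start of Slc2a3, a region 97.17 kb downstream had peaks in 7 libraries, all but native Oct4, with heights from 12 tags in native Sox2 to 40 in native Nr5a2. The next region, 103.52 kb downstream and 8908 bp from the nearest coding start, that of the forkhead gene Foxj2, was the only one with peaks in all 8 libraries. Its heights were 47 tags in native Nanog, 43 in NanogBiD, 20 in native Oct4, 42 in Oct4BiD, 27 in native Sox2, 31 in Sox2BiD, 27 in native Nr5a2 and 35 in Nr5a2BiD. Regions with a peak in all 8 libraries were 2.04% here and 1.49% of all regions.

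**Figure D3:**
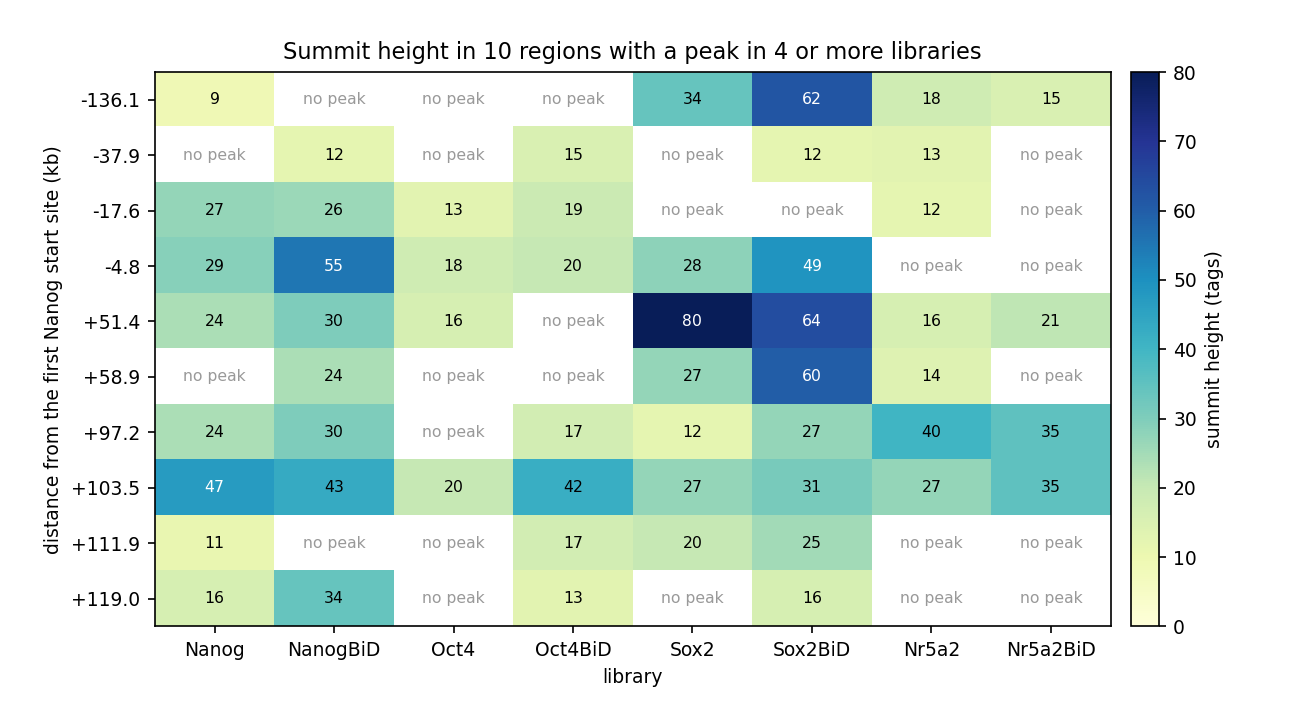
Summit height in tags (colour and number) in 10 of the 11 regions with a peak in 4 or more libraries (1 is not shown), by distance from the first Nanog start site (kb, y axis) and library (x axis), with the highest summit shown where a library had more than 1. Heights are not scaled to depth, and the highest value was 80 tags in native Sox2 at +51.4 kb.

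The positions left long stretches without a summit. The longest was in native Nanog, 118.5 kb from 136.1 to 17.62 kb upstream of Nanog, over Apobec1, Gdf3 and Dppa3. In native Sox2 it was 104.1 kb, from 108.83 to 4.76 kb upstream. In the 6 other libraries the longest stretch ran from 51.5 kb in Oct4BiD to 81.3 kb in native Nr5a2. Repeat-masked sequence made up 38.2% of the neighbourhood and 36.4% of the placed chromosomes, so masked bases were about as frequent here. The masked share of the long stretches themselves was not measured. Of the 116 summits, 55 were intergenic, 52 were in introns, 7 were in untranslated regions and 2 were on exons of non-coding transcripts.

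The comparison of BiD with native forms asked whether the fusion changed how many summits fell in the neighbourhood. NanogBiD had 16 summits and native Nanog 12, Oct4BiD 22 and native Oct4 13, and Sox2BiD 18 and native Sox2 10. Nr5a2BiD went the other way, with 8 summits beside 17 in native Nr5a2. Per 10000 peaks NanogBiD had 2.11 and native Nanog 1.63, and Oct4BiD had 2.34 and native Oct4 2.37. Sox2BiD had 1.49 beside 1.72 in the native form, and Nr5a2BiD had 1.05 beside 1.57. The mean of the 4 differences was -0.076 ± 0.421 (SD, n = 4 factors), and an exact two-sided sign-flip permutation test over the factors gave p = 0.625, where the smallest p it allows is 2 of 16 sign patterns. Between Oct4BiD and native Oct4 the difference of 9 summits went with a difference in list length, 93978 beside 54794 peaks.

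**Figure D4:**
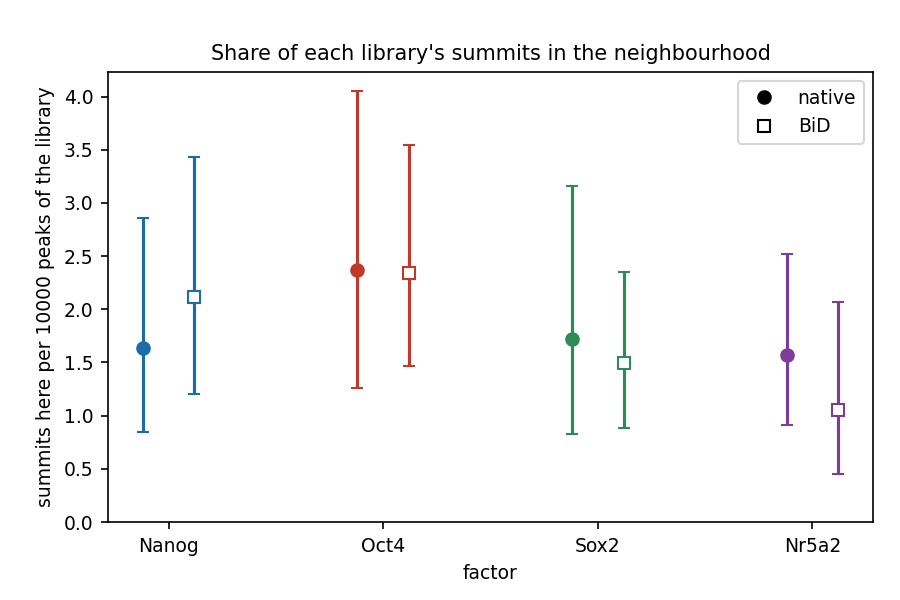
Summits in the neighbourhood per 10000 peaks of the library (y axis) for each factor (x axis), with native forms as filled circles, BiD forms as open squares and exact Poisson 95% intervals of the count as bars. The values run from 1.05 in Nr5a2BiD to 2.37 in native Oct4, and the intervals of both forms overlap for each factor.

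The density of summits here was above that of all chromosomes in 7 libraries, and in 3 of them the interval of the count lay above it. The density per Mb was 40.1 here and 27.0 over all chromosomes in native Nanog, 53.5 and 27.8 in NanogBiD, 43.4 and 20.1 in native Oct4, and 73.5 and 34.5 in Oct4BiD. It was 33.4 and 21.3 in native Sox2, 60.2 and 44.2 in Sox2BiD, and 56.8 and 39.6 in native Nr5a2. In Nr5a2BiD it was 26.7 and 28.0. Exact Poisson 95% intervals of the density here lay above the genome value in NanogBiD (30.6 to 86.8), native Oct4 (23.1 to 74.3) and Oct4BiD (46.1 to 111.3), and held it in the other 5 libraries. The intervals were not adjusted for their number. The value over all chromosomes includes sequence far from genes, whereas this stretch was chosen around genes. The whole stretch was not compared with stretches of the same kind. Each gene can be set beside the median protein-coding gene, counted alike. That median was 4 summits for NanogBiD, with 9 at Slc2a3, 5 at Nanog, 4 at Apobec1, 3 at Gdf3 and 2 at Dppa3. It was 3 for native Oct4, with 3 at Slc2a3, 4 at Nanog and 5 at Dppa3, Gdf3 and Apobec1. Oct4BiD had a median of 5, with 5 at Nanog, 7 at Gdf3, 8 at Slc2a3 and Apobec1, and 9 at Dppa3. Counts thus lay on both sides of the median for NanogBiD and at or above it for both Oct4 forms. In native Nanog the median was 4, and only Slc2a3 (7) was above it. In Sox2BiD it was 6, and again only Slc2a3 (9) was above. For native Sox2, with a median of 2, Slc2a3 (6) and Apobec1 (3) were above. Native Nr5a2 had a median of 8, with 8 at Nanog and fewer at the other genes. In Nr5a2BiD, with a median of 5, every gene was below, with 2 or 3 summits.

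The second comparison asked whether both forms of a factor used the same regions. The Jaccard index, which divides the regions that a pair of libraries shares by those that either has, was highest for Nanog at 0.556. Sox2 followed at 0.5, Oct4 at 0.4 and Nr5a2 at 0.316. The mean was 0.443 ± 0.106 (SD, n = 4 factors), beside a mean of 0.245 for native and BiD libraries of different factors. An exact one-sided permutation test over the 24 pairings gave p = 0.0417, the smallest it allows, and 0.0833 after Benjamini-Hochberg adjustment over both tests. The pairs overlapped in range, since native Nanog and Sox2BiD reached 0.364, above the Nr5a2 pair. Outside these pairings, native Nanog and native Sox2 reached 0.5, the same as the Sox2 pair and above the Oct4 and Nr5a2 pairs. Over all regions of the genome the same-factor values were 0.558 for Nanog, 0.393 for Sox2, 0.371 for Oct4 and 0.555 for Nr5a2. Native and BiD libraries of different factors ran from 0.106 to 0.234 there. This was known before the permutation test, so its p adds no support particular to the neighbourhood. The Nr5a2 pair shared a smaller part of its regions here than over all regions. That difference has no replicate and was not tested.

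Regions found in a single library were 24 of the 49 (49.0%), beside 46.0% of all regions. Oct4BiD alone had 7 (14.3%, beside 10.6% of all regions), Sox2BiD alone 6 (12.2%, beside 12.7%) and native Nr5a2 alone 5 (10.2%, beside 9.96%). NanogBiD alone had 3, Nr5a2BiD alone 2 and native Oct4 alone 1. Native Nanog and native Sox2 alone had 0, and their shares of all regions were also small, 2.66% and 1.77%. Regions with peaks of native Nr5a2 and not of Nr5a2BiD were 11 (22.4%, beside 13.5% of all regions), and those of the reverse kind were 2 (4.08%, beside 3.35%).

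The word of the factor profiled lay within 50 bp of 9 of the 116 summits (7.76%), beside 6.53% of 660899 summits of the placed chromosomes. Over all libraries the NANOG word was found at 6 summits (5.17%), beside 1.2% of all summits, and these were 1 site counted in 6 libraries. The AP-1 word was found at 14 summits (12.1%), beside 7.31%, and the NR5A word at 6 (5.17%), beside 2.31%. The SOX word was found at 3 (2.59%), beside 3.48%, and the octamer at 1 (0.862%), beside 2.21%. Summits of several libraries at 1 site share their sequence, so these counts are not independent.

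Among 18799 protein-coding genes, those whose summits per 10000 peaks were most like those of Nanog over the 8 libraries were Accs (Pearson r = 0.962), Brpf1 (0.962), Ubap2 (0.959), Kcna7 (0.949) and Cyfip2 (0.945). Accs had 2, 7, 6, 7, 0, 7, 10 and 5 summits in native Nanog, NanogBiD, native Oct4, Oct4BiD, native Sox2, Sox2BiD, native Nr5a2 and Nr5a2BiD. All points share the libraries and their depth, and with 8 points among so many genes a high r is a description only.

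Other genes of the pluripotency network were counted in the same way. Of a list of 20, 17 had a summit in native Nanog, 17 in NanogBiD, 14 in native Oct4, 17 in Oct4BiD, 14 in native Sox2, 20 in Sox2BiD, 20 in native Nr5a2 and 19 in Nr5a2BiD. The share of all protein-coding genes with a summit ran from 77.5% in native Sox2 to 88.7% in Sox2BiD, and it was 82.0% in native Oct4, so most of these counts were near the share of all genes. Tet1, which encodes a 5-methylcytosine oxidase, had the most summits over the 8 libraries, 71. Zfp42, the marker also called Rex1, had the fewest, 9, beside 33 for Nanog. These totals were not scaled to the length of the window, which is wider for genes longer than 50 kb. Coding exon summits were not set apart for the genes of this list, of which Pou5f1, Sox2 and Nr5a2 are themselves delivered factors.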

How the data were processed

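Flag CUT&Tag peak lists of 8 libraries, 1 per group, were analysed. The study's methods give adapter trimming in Trim Galore 0.6.4 and alignment by Bowtie2 2.4.5 against mm10. SAMtools 1.16.1 served to drop mitochondrial and repetitive reads and those of mapping quality below 30. The authors ran MACS 1.4.2 without a shift model or a named control, at 1 tag per position and a shift size of 25 bp. These methods speak of merged replicates, whereas the reporting summary states that CUT&Tag was done once, with no biological replicates. The score in the deposited peak lists is −log10 of the MACS p multiplied by 10, from 50 upwards. The deposited summit lists give the signal at the summit in whole tags. The study states read totals per library; they were not used here, and heights and counts are not scaled to them, and poorly mapped repeats carry no peaks.

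Summits were assigned with GENCODE M21 on GRCm38, and 0 peaks ran past a chromosome end. Peaks overlapping by at least 1 bp were merged into regions. The 5 genes, the lists and the tests were chosen with earlier results of these data known. Named genes were the 5 genes, genes whose start was nearest to a described region, and the 5 genes over 1 Mb away with at least 8 summits whose counts were most like those of Nanog, with a list of 20 pluripotency genes and 10 fibroblast genes. Python 3.11.15, NumPy 2.4.6, pandas 2.3.3, SciPy 1.17.1 and matplotlib 3.10.9 were used, and the counting, merging and word search were tested on simulated data. Promoter sequences were matched for Nanog and Apobec1; Slc2a3, Dppa3 and Gdf3 had no entry. Alternatives changed the window, score, number of peaks, merging, exon rule, Slc2a3 start and word window. A gene at the edge of the stretch is not reported here.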

Additional observations from a re-analysis of the deposited data

Results flagged for a closer look

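The difference in summits per 10000 peaks between BiD and native forms went in opposite directions for different factors. Nanog had a difference of 0.478, Oct4 of -0.0315, Sox2 of -0.227 and Nr5a2 of -0.524. With 1 library per form, the difference between factors was not tested. The lists also differed in length, with 75769 peaks in NanogBiD and 73465 in native Nanog, and 76217 in Nr5a2BiD and 108030 in native Nr5a2. The part of list length and depth in these differences was not tested.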

How the results depend on the processing

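The mean BiD minus native difference of -0.076 summits per 10000 peaks comes from a test that cannot pass the threshold with 4 factors, so its p says nothing about stability. Its sign changed with the processing. It was 0.0697 with a 20 kb window, 0.0305 with scores of at least 100, 0.25 when each list was limited to its 50000 highest-scoring peaks, and 3 summits as a raw number. Leaving out 1 factor in turn gave -0.261 to 0.0733, the last without Nr5a2, with a smallest possible p of 0.25. The exact one-sided p of the same-factor Jaccard index stayed at 0.0417, with means from 0.353 (merging summits within 200 bp) to 0.526 (scores of at least 100) beside 0.443. The 49 regions became 27 with a 20 kb window and 31 with the 50000 highest-scoring peaks. The word of the factor profiled was at 5 summits within 25 bp, beside 9 within 50 bp. Of 336 recomputed counts per library and gene, 118 moved by more than 1.5 times, mainly with the window, the score or the number of peaks. In the window of Nanog, scores of at least 100 left 3 of the 8 summits of native Nr5a2 and 1 of the 5 of Sox2BiD, and Oct4BiD then had the most, 5. The Slc2a3 start was an alternative chosen after the data were seen. Read totals were not used here, so a weak peak missing from 1 library may lie below its threshold.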
